A study of Mus musculus with 56 samples.

Results

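The transcripts encoded by mitochondrial DNA were all the genes whose symbol begins with mt-, which were 37 of the 52230 genes in the liver read counts of 56 male mice. They comprised 13 protein-coding genes, 22 tRNA genes and 2 rRNA genes, each with 1 transcript, and all 37 lie on chromosome M (GRCm39). The mice came from the knock-in line GCKR-P446L-EMI-B6N, in which Gckr encodes GKRP, the inhibitor of glucokinase in hepatocyte nuclei, with proline (P) or leucine (L) as residue 446. Every animal, controls included, ate food rich in fat and sugar (HFHSD) during 20 weeks, with 45% fat in the food and 10% glucose and 5% fructose in the water. Without further treatment the genotypes were Gckr-446P (PP, n = 10), Gckr-446P/L (PL, n = 8) and Gckr-446L (LL, n = 10). With a glucokinase activator (GKA, 3 mg/kg) in the diet they were PP (n = 10), PL (n = 8) and LL (n = 10). PP mouse 7 was left out, so that n = 9 for PP without GKA and 55 mice were used. The labels name the activator only as GKA, and a single knock-in line was used.

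Each mouse had between 5180136 and 8081369 reads assigned to genes (median 6545491). The summed normalised read count of 5 hepatocyte markers was between 76130 and 130100 counts per 1000000 reads (CPM) per mouse, whereas the 4 skeletal muscle markers together were at most 0.789 CPM and 3 of 4 pancreas markers had no read in any mouse. Blood cell markers (5 genes) ranged from 284.6 to 2962 CPM and were highest in an LL mouse with GKA. The ranges of each list overlapped between all 6 groups. The fragment length implied by the deposited effective lengths ranged from 171 to 681 bases between mice (median 445 bases), and its ranges also overlapped between the groups. In whole liver, fewer mitochondria-rich cells and less mitochondrial RNA per cell cannot be told apart.

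Mitochondrial DNA is a small circle held in many copies in each cell, and hepatocytes are rich in mitochondria. It is transcribed from both strands into long precursor RNAs, from which tRNAs are cut out, so that the rRNAs and mRNAs between them are set free. The 13 mRNAs encode core subunits of complexes I, III, IV and V of oxidative phosphorylation, whereas the enzymes that copy, transcribe, process and translate mitochondrial DNA are encoded in the nucleus.

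Several sequences carry the results that follow. The first is mt-Atp8, the shortest of the 13 mRNAs, at chrM:7766-7969 on the plus strand, where the 43 bases in capitals are shared with the start of mt-Atp6.
mt-Atp8: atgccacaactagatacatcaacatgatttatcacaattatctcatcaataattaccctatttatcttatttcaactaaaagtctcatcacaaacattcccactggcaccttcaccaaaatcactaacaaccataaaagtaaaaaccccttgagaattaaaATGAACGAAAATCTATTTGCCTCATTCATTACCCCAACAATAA
A read from those 43 bases could belong to either gene. Another 7 bases are shared by mt-Nd4l and mt-Nd4, and 14 bases by mt-Nd5 and the oppositely oriented mt-Nd6.

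The tRNA genes with the most reads were mt-Ts1 (chrM:6870-6938, minus strand) and mt-Te (chrM:14071-14139, minus strand), shown beside mt-Ts2 (chrM:11613-11671, plus strand), the shortest of the 37 genes, which had no read. The 3 capital bases of mt-Ts1 lie opposite the end of mt-Co1.
mt-Ts1: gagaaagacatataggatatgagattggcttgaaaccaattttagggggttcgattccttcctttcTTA
mt-Te: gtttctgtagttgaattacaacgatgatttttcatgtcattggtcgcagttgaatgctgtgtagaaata
mt-Ts2: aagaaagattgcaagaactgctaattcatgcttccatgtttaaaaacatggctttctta

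The remaining sequences show how little separates some members from pseudogenes in the nucleus. A block on chromosome 1 (24650616 to 24655278, minus strand) holds 7 annotated pseudogenes that copy mt-Co1, mt-Co2, mt-Atp6, mt-Co3, mt-Nd3, mt-Nd4l and mt-Nd4 in whole or in part, and 5 of them were identical to mitochondrial DNA over their whole length. The other two each had 1 mismatch in the aligned part, shown in capitals at chrM:6390-6423 against chr1:24655236-24655269, and at chrM:9459-9491 against chr1:24652168-24652200.
mt-Co1: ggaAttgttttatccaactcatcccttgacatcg
Gm29216: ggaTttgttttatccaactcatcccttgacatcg
mt-Nd3: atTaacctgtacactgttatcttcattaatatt
Gm28438: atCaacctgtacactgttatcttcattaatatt
Counted from the first base of the mitochondrial gene, with its base first, these were A1066T in the copy of mt-Co1 and T3C in the copy of mt-Nd3.

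The 15 rRNA and mRNA genes held nearly all mitochondrial reads. Levels between genes are given per length, as reads per kilobase of annotated length per 1000000 gene reads (RPKM), as the median of 55 mice with the range. In these libraries the rRNAs, which form part of the mitochondrial ribosome, were the lowest of the 15. They were at 407 RPKM for mt-Rnr1 (266 to 696) and 375 RPKM for mt-Rnr2 (222.5 to 636). How RNA was selected for the libraries is not given in the sources used here. Their place below the mRNAs therefore holds for these libraries and cannot be read as their level in the liver. Together they made up 1.02% ± 0.164 (SD, n = 55) of mitochondrial reads.

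Among the mRNAs of complex IV, which passes electrons to oxygen, mt-Co1 was the highest member at 23960 RPKM (14750 to 32140). The level of mt-Co3 was 9636 RPKM (2973 to 16010) and that of mt-Co2 only 2003 RPKM, with a wide range of 922.7 to 17510. The sole mRNA of complex III, mt-Cytb, was at 12460 RPKM (8953 to 15180). These values put mt-Co2 more than an order of magnitude below mt-Co1 in the median mouse but not in every mouse.

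For complex V, the ATP synthase, mt-Atp8 was at 12370 RPKM (6660 to 16360) and mt-Atp6, which overlaps it, at 4838 RPKM (2300 to 10090). The 7 mRNAs of complex I, which takes electrons from NADH, spread from 671 RPKM for mt-Nd3 (156.4 to 3609) to 6765 RPKM for mt-Nd2 (4555 to 8745). Between them lay mt-Nd1 at 6532, mt-Nd4 at 6526, mt-Nd4l at 4055, mt-Nd6 at 3817 and mt-Nd5 at 3306 RPKM. The neighbours mt-Nd2, mt-Nd1 and mt-Nd4 had overlapping ranges. mt-Nd6, the only mRNA encoded on the opposite strand to the others, together with the 8 tRNA genes of its strand, made up 2.09% ± 0.266 (SD, n = 55) of mitochondrial reads.

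**Figure D1:**
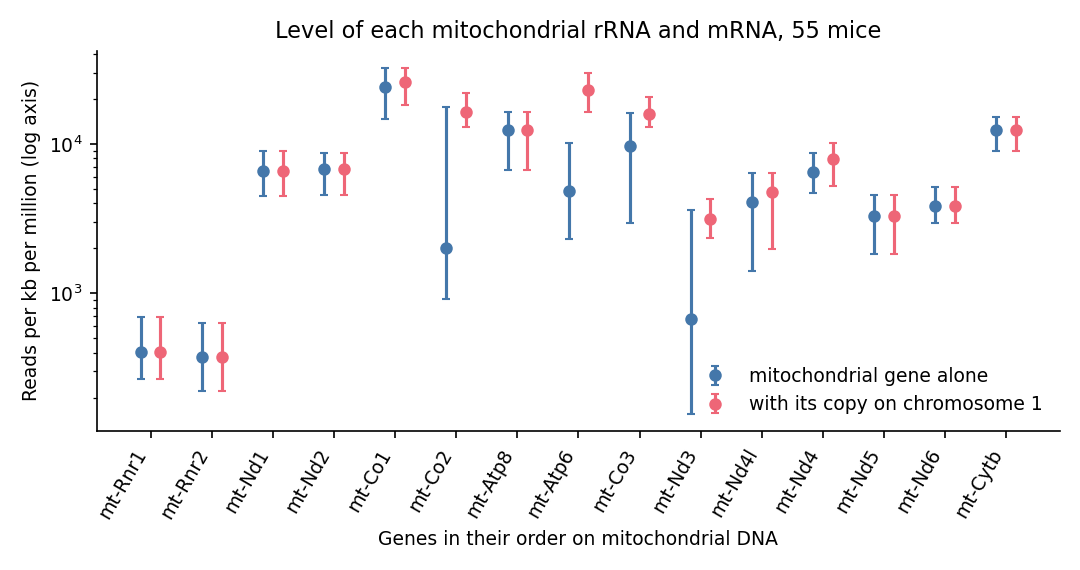
Reads per kilobase per 1000000 on a log axis for the 15 rRNA and mRNA genes in their order on mitochondrial DNA; points are medians of 55 mice and bars the lowest and highest mouse, for the gene alone and with the reads of its copy on chromosome 1. The bars of mt-Co2, mt-Atp6, mt-Co3 and mt-Nd3 shortened when the copy was added, and mt-Rnr1 and mt-Rnr2 lay below all other summed levels.

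The tRNAs, the adaptors that carry amino acids to the mitochondrial ribosome, were almost absent from these libraries. The 22 genes had 327 reads in all 56 mice, of 36260005 mitochondrial reads, and no mouse had more than 15. For 8 genes (mt-Tf, mt-Tv, mt-Td, mt-Tg, mt-Tr, mt-Th, mt-Ts2 and mt-Tt) there was no read in any mouse, and 0 of 370835902 gene reads allows a level of up to 0.00809 reads per 1000000, for counting error only. The serine tRNA gene mt-Ts1 had 170 reads in 52 mice and the glutamate tRNA gene mt-Te 75 reads in 39 mice, which together were 74.9% of the tRNA reads. Next were mt-Tn (36 reads), mt-Tc (13 reads) and mt-Tq (10 reads). All 5 of these lie on the minus strand, and the 8 tRNA genes of that strand held 311 reads against 16 for the 14 on the plus strand. Whether the counting used strand is not given in the sources used here, so that reads of a tRNA gene and of RNA from the opposite strand cannot be told apart.

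The tRNA genes stayed low in TPM, although their share of mitochondrial TPM was larger than their share of mitochondrial reads. Their deposited effective length equalled their annotated length of 59 to 75 bases in every mouse, and their highest TPM in any of the 55 mice was 10.1, for mt-Ts1. The transcript whose TPM varied most with effective length was mt-Atp8, with 204 bases.

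Reads of mt-Atp8 ranged from 7944 to 24770 between the 55 mice, which is a 3.12-fold range. Its effective length, the part of a transcript where Salmon expects a fragment to start, ranged from 1.13 to 115.5 bases (median 54.2), and its TPM from 3610 to 515767, a 143-fold range. In PL mouse 35 with GKA, an effective length of 1.13 bases turned 13903 reads into 515767 TPM, so that this gene held 51.6% of all TPM and 484233 TPM were left to all other transcripts. PP mouse 1 had 19363 reads, an effective length of 6.46 bases and 227801 TPM. LL mouse 37 had 10752 reads, an effective length of 3.06 bases and 190963 TPM. PL mouse 21 had 16466 reads, an effective length of 13.2 bases and 101438 TPM. In reads none of these 4 mice was the highest for mt-Atp8.

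Dividing by the annotated 204 bases in place of the effective length brought PL mouse 35 with GKA to 5881 TPM, and all 55 mice to between 1679 and 16000 TPM. By median TPM mt-Atp8 was the highest mitochondrial transcript (28950 TPM), above mt-Co1 (18450 TPM), whereas by RPKM it was the third. The coefficient of variation of mt-Atp8 over the 55 mice was 17.5% in CPM and 163% in TPM. The next shortest mRNAs also had wide effective lengths. For mt-Nd4l, with 297 bases, these were 18.3 to 189 bases, and its TPM spanned a 30.0-fold range against 4.59-fold in reads. For mt-Nd3, with 348 bases, they were 34.9 to 237 bases, with a 28.8-fold range in TPM and 26.5-fold in reads. For mt-Cytb, a long mRNA of 1144 bases, TPM spanned 4.81-fold and reads 2.19-fold.

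**Figure D2:**
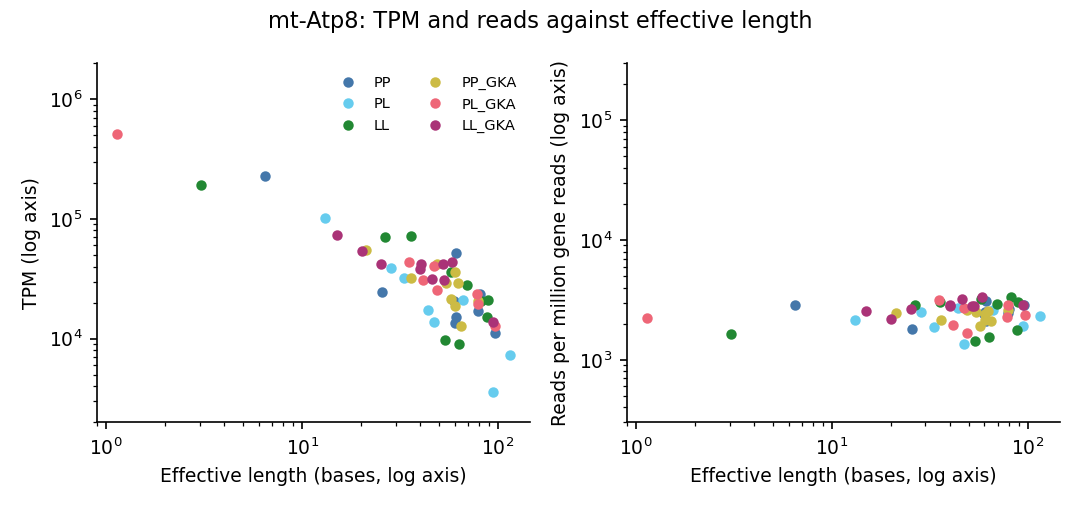
Each point is a mouse (55 mice, coloured by group), with the effective length of mt-Atp8 in bases on the log x axis; the left panel has TPM and the right panel reads per 1000000 gene reads, both on log axes of equal span. TPM fell from 515767 towards its lowest values, such as 3610, as effective length rose from 1.13 to 115.5 bases, whereas reads per 1000000 stayed in a narrow band.

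The choice of unit also changed the size of group differences in mt-Atp8. For GKA in PL mice, the log2 fold change was 0.20 ± 0.11 (SE, edgeR adjusted p = 0.999) in reads, 1.00 ± 0.67 (SE, limma adjusted p = 0.715) in TPM and 2.30 ± 0.965 (SE, edgeR adjusted p = 0.416) in reads with effective length as an offset. PL mice with GKA include mouse 35, which has the shortest effective length. All mitochondrial genes together held 55.2% of TPM in that mouse but 8.78% of its reads.

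The nuclear copies held many of the reads of several members. Atp6-ps, a copy of mt-Atp6, had a median of 79257 reads per mouse over all 56 mice, Gm28661 (mt-Co2) 64086 reads, Gm28437 (mt-Co3) 32125 reads, Gm29216 (the end of mt-Co1) 20149 reads, Gm28439 (the start of mt-Nd4) 11115 reads, Gm28438 (mt-Nd3) 5631 reads and Gm10222 (mt-Nd4l) 129 reads. The 9 other pseudogenes that resemble mitochondrial DNA, on other chromosomes, never had more than 23.4 reads in a mouse. Where a copy is identical, a read within it cannot be assigned to the gene or to the copy, so the values of both are uncertain.

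How the reads were split differed from mouse to mouse. For mt-Co2, the gene held between 5.38% and 100% of the reads of gene and copy together (median 12.2%, n = 55). LL mouse 46 and PP mouse 13 with GKA had nearly all of them on the gene, and these 2 mice had the highest mt-Co2 of their groups, 11810 and 10420 CPM. For mt-Nd3 the gene held 4.64% to 100% (median 20.1%), for mt-Atp6 9.78% to 58.9% (median 21.2%) and for mt-Co3 18.6% to 97.1% (median 58.9%). The shares were higher for mt-Nd4l (median 98.9%), mt-Co1 (median 91.2%) and mt-Nd4 (median 85.4%). Gm10222 had under 100 reads in 26 mice and Gm29216 in 14 mice, beside medians of 129 and 20149 reads.

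Adding the copy to its gene narrowed the spread between mice. For mt-Co2 the coefficient of variation over 55 mice was 107% for the gene and 13.2% for the sum, for mt-Nd3 82.4% and 19.6%, for mt-Atp6 41.5% and 13.8%, and for mt-Co3 34.0% and 15.2%. Reads of mt-Co2 spanned 26.3-fold alone and 1.93-fold as a sum. The sums also changed the order of levels. With copies, mt-Co1 was at 25880 RPKM, mt-Atp6 at 22810, mt-Co2 at 16290 and mt-Co3 at 15740 RPKM, above mt-Cytb and mt-Atp8, and mt-Nd3 rose from 671 to 3153 RPKM. The ranges of mt-Co2 and mt-Co3 overlapped.

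**Figure D3:**
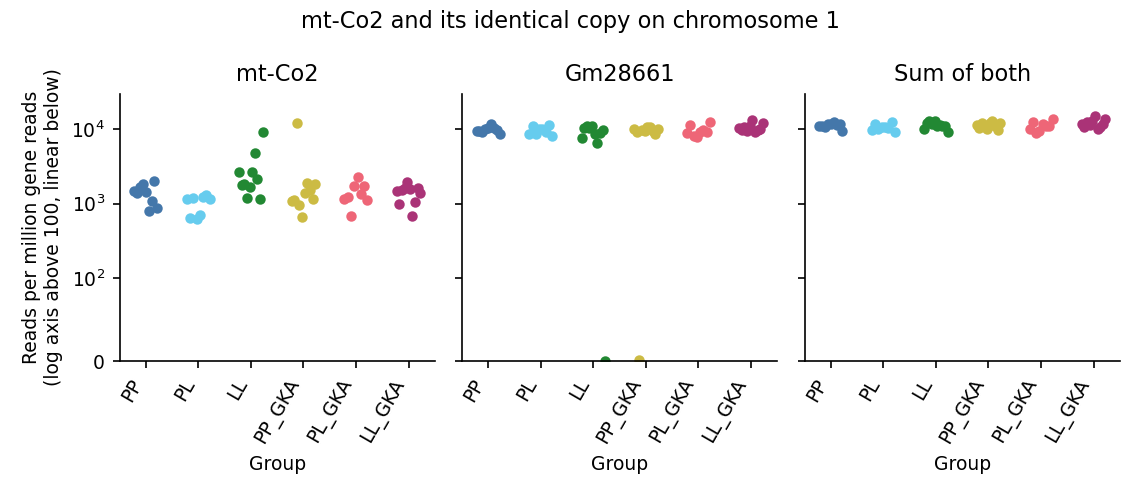
Reads per 1000000 gene reads (log axis above 100, linear below) of mt-Co2, of its copy Gm28661 and of their sum, in each of 55 mice by group. In LL mouse 46 and PP mouse 13 with GKA the copy was at or near 0 and mt-Co2 was at its highest, whereas the sums of the 6 groups overlapped.

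The share of reads on mitochondrial genes was lowest by mean in PL without GKA and overlapped between all 6 groups. The share of gene reads on the 37 genes was 9.87% ± 1.04 in PP (SD, n = 9), 8.92% ± 1.06 in PL (SD, n = 8) and 10.3% ± 1.48 in LL (SD, n = 10). With GKA it was 9.46% ± 0.866 in PP (SD, n = 10), 9.78% ± 1.475 in PL (SD, n = 8) and 10.3% ± 1.17 in LL (SD, n = 10). The lowest mouse was PL mouse 28 at 6.75% and the ranges of all groups overlapped. With the copies included, the share was 13.2% ± 0.972 in PP, 12.4% ± 1.46 in PL and 13.1% ± 2.07 in LL, and with GKA 12.7% ± 0.657, 12.8% ± 1.82 and 14.0% ± 1.297 (SD, same n). These shares are given as a description, with no test.

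**Figure D4:**
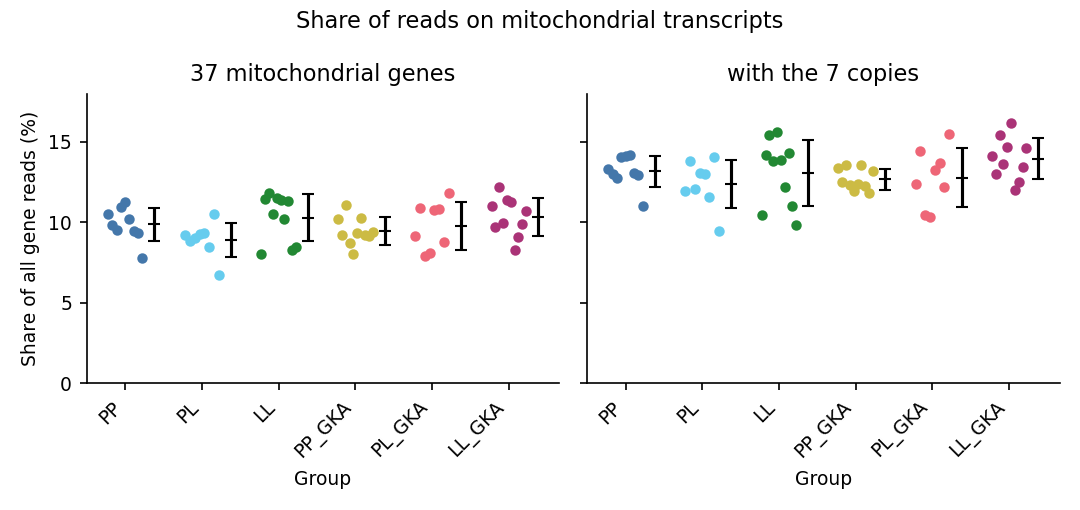
Share of all gene reads in percent on the 37 mitochondrial genes (left) and with the 7 copies on chromosome 1 (right) in each mouse by group, with the mean and SD in black. The lowest mouse on the left was PL mouse 28 at 6.75%, and the groups overlapped in both panels.

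The genotype and GKA comparisons ask whether the residue at position 446 or the activator altered mitochondrial transcripts. Of the 37 genes, 15 passed the filter on low counts in every comparison, namely the 13 mRNAs and 2 rRNAs, and no tRNA gene did. Differentially expressed genes (DEGs) needed an adjusted p below 0.05 together with a change of 1.3-fold or more, or of 0.7-fold or less. With the quasi-likelihood test of edgeR, 0 of 15 were DEGs in each of the 9 comparisons. Over all genes tested, the percentage of DEGs was 0.0854 for LL against PP, 0.151 for PL against PP, 0.00942 for LL against PL and 0.239 for LL against PP with GKA. With GKA it was 0 for the comparisons of PL with PP and of LL with PL. It was 0 for GKA within each of the genotypes. The authors, who used DESeq2, reported more DEGs between LL and PP on this diet than edgeR called here. The test of whether GKA acted differently in LL and PP (the interaction), which had no fold threshold, passed for 0 of 15 members and for 0% of all genes. The between-mouse coefficient of variation estimated by edgeR had a median of 19.0% over the 15 members and of 17.5% over 11516 genes.

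Counts at an unadjusted p below 0.05, in either direction, are given beside the percentage of all genes tested. For LL against PP these were 2 of 15 members (13.3%) against 11.8%, for PL against PP 2 (13.3%) against 10.1%, and for LL against PL 3 (20.0%) against 4.58%. With GKA, they were 5 (33.3%) against 10.4% for LL against PP, 1 (6.67%) against 8.19% for PL against PP and 1 (6.67%) against 8.6% for LL against PL. For GKA they were 0 against 3.56% in PP, 2 (13.3%) against 3.18% in PL and 2 (13.3%) against 6.15% in LL. For the interaction there were 2 (13.3%) against 5.75%. The comparisons without GKA share groups with each other, as do those with GKA, so that their values are not independent.

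Without GKA, the largest fitted differences were in genes with a nearly identical copy. For mt-Co2, the lowest, median and highest values were 1020, 1961 and 11810 CPM in LL, 685.7, 1401 and 2266 CPM in PP, and 560.7, 1195 and 1345 CPM in PL. The LL range overlapped with both others, and its highest value was LL mouse 46. The log2 fold change was 1.17 ± 0.39 (SE) for LL against PP (edgeR adjusted p = 0.211) and 1.61 ± 0.42 (SE) for LL against PL (edgeR adjusted p = 0.371). Without LL mouse 46 these were 0.65 and 1.10. With Gm28661 added, the sums were 11340 ± 1231 CPM in LL (SD, n = 10), 11140 ± 942 in PP (SD, n = 9) and 10560 ± 853 in PL (SD, n = 8), and the log2 fold changes were 0.03 ± 0.08 and 0.10 ± 0.08 (SE).

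For mt-Atp6, the lowest, median and highest values were 2653, 4896 and 8928 CPM in LL, 2213, 4079 and 5044 CPM in PP, and 1389, 2342 and 3509 CPM in PL. PL lay lowest by median and its range overlapped with both others. The log2 fold change for LL against PL was 1.11 ± 0.23 (SE, edgeR adjusted p = 0.116), and with Atp6-ps added 0.12 ± 0.09 (SE, adjusted p = 1.00). DESeq2 gave 1.12 for the gene alone with an adjusted p of 0.000625, the only call of a member by any of the tools and settings used. For PL against PP mt-Atp6 had a log2 fold change of -0.68 ± 0.21 (SE, edgeR adjusted p = 0.225), and -0.14 ± 0.08 with Atp6-ps. For LL against PL, adding the copy took mt-Nd3 from 0.77 ± 0.29 to 0.19 ± 0.12, mt-Co3 from 0.53 ± 0.26 to 0.03 ± 0.09 and mt-Co1 from 0.14 ± 0.12 to 0.07 ± 0.09 (SE). It did not bring mt-Nd4 or mt-Nd4l nearer to 0, which went from 0.035 ± 0.10 to 0.09 ± 0.10 and from -0.02 ± 0.20 to -0.07 ± 0.18 (SE).

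In LL against PP with GKA, the 5 members with the lowest p had no copy of their own among the 7 pseudogenes, although the last 43 bases of mt-Atp8 also lie in Atp6-ps. mt-Nd1 had a lowest, median and highest value of 5692, 7075 and 9709 CPM in LL and of 4983, 5775 and 6915 CPM in PP, and the ranges overlapped. Its log2 fold change was 0.35 ± 0.11 (SE, edgeR adjusted p = 0.210). The fold was below 1.3 with DESeq2 (adjusted p = 0.0359) and in the edgeR fit of all 6 groups (adjusted p = 0.0361), so that it was no DEG there either. The log2 fold change was 0.29 ± 0.10 for mt-Atp8, 0.31 ± 0.13 for mt-Nd5, 0.30 ± 0.13 for mt-Nd6 and 0.23 ± 0.11 for mt-Nd2 (SE, edgeR adjusted p from 0.268 to 0.459). In this comparison 14 of 15 fitted changes were above 0, with a median of 0.23 against 0.00 for all genes tested, and with the copies added all 15 were, with a median of 0.19. The exception without the copies was mt-Co2, at -0.65 ± 0.40 (SE). Other tests were as one-sided for the gene alone. In LL against PL (median 0.14) and for GKA in PL (0.12), 14 of 15 were above 0. In PL against PP (-0.17) and for GKA in PP (-0.09), 14 of 15 were below 0. The remaining tests had 10 to 12 above 0. With the copies added, all 15 were above 0 in LL against PL with GKA and in the interaction, and 0 of 15 in PL against PP. The 15 members are cut from shared precursor RNAs and were measured in the same mice, so that they are not 15 independent results.

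The rRNA mt-Rnr2 was at 653 ± 83.3 CPM in PP (SD, n = 9), 541 ± 77.6 in PL (SD, n = 8) and 614 ± 100.4 in LL (SD, n = 10). With GKA it was at 599 ± 77.8, 503 ± 43.8 and 684 ± 187 CPM in PP, PL and LL (SD). The log2 fold change for PL against PP was -0.27 ± 0.10 (SE, edgeR adjusted p = 0.303) without GKA and -0.26 ± 0.09 (SE, edgeR adjusted p = 0.373) with it. For LL against PL with GKA it was 0.44 ± 0.135 (SE, edgeR adjusted p = 0.351). The lowest, median and highest values with GKA were 523, 623.5 and 1114 CPM in LL and 421, 510 and 557.5 CPM in PL. LL mouse 51 with GKA had the most mt-Rnr2 reads of its group (5516), and the test was not run without it.

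GKA itself gave no DEG among the members in any genotype. In LL, mt-Co2 had a log2 fold change of -1.14 ± 0.37 (SE, edgeR adjusted p = 0.637) for GKA, -0.62 without LL mouse 46 and 0.11 ± 0.11 (SE) with Gm28661 added. In PP, where PP mouse 13 with GKA was the highest of its group, mt-Co2 had 0.67 ± 0.43 (SE) for the gene and 0.01 ± 0.09 (SE) for the sum. The interaction for mt-Co2 was -1.82 ± 0.59 (SE, edgeR adjusted p = 0.867) for the gene, -1.297 without LL mouse 46, -1.06 without PP mouse 13 with GKA and 0.10 ± 0.13 (SE) for the sum.

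**Figure D5:**
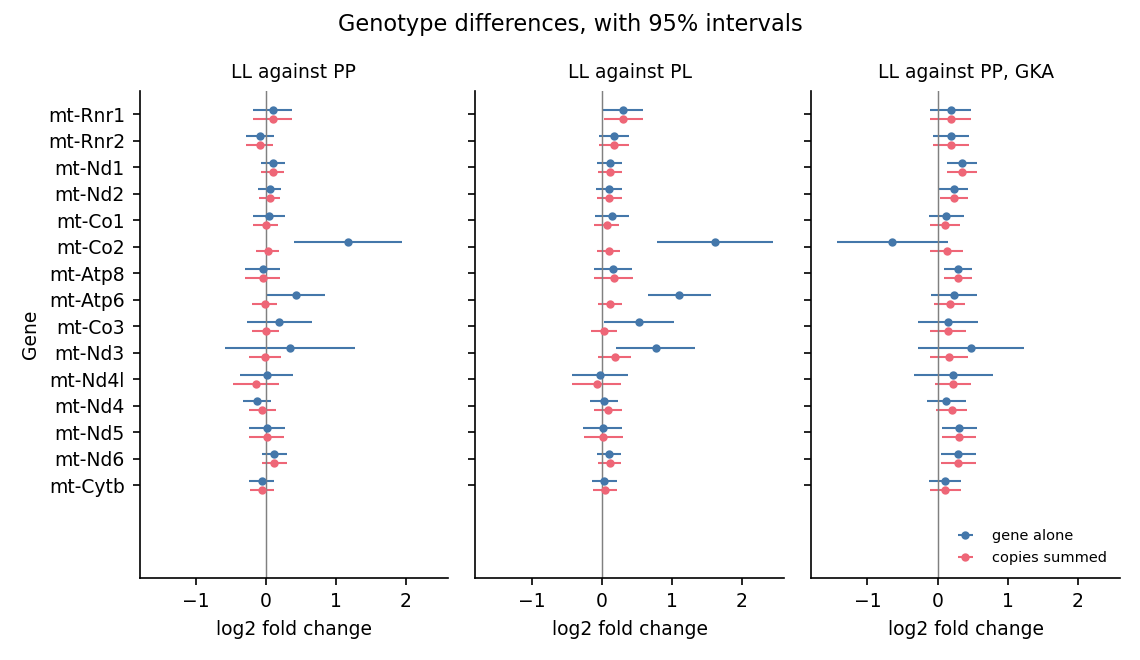
Log2 fold change from edgeR for each of the 15 genes in LL against PP, LL against PL and LL against PP with GKA. It is shown for the gene alone and with copies added. Bars are approximate 95% intervals from the standard error and the normal distribution. They can exclude 0 where the unadjusted p of edgeR was above 0.05, as for mt-Co3 in LL against PL. The points of mt-Co2, mt-Atp6 and mt-Nd3 moved towards 0 when copies were added, whereas those of mt-Nd1, mt-Nd5 and mt-Nd6 stayed at their place.

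The nuclear genes that serve mitochondrial DNA gave no DEG in any of the 10 tests. They were taken as 6 lists, namely transcription and replication (15 of 17 genes tested), regulators of mitochondrial genes (8 of 8), RNA processing and decay (23 of 23), tRNA and rRNA modification (19 of 22), mitochondrial aminoacyl-tRNA synthetases (22 of 22) and mitochondrial ribosomal proteins (78 of 78), as tested in LL against PP. In each list 0 genes were higher and 0 lower as DEGs. For LL against PP the median log2 fold change was 0.01 for transcription and replication, 0.12 for regulators, 0.01 for processing, 0.04 for modification, 0.03 for the synthetases and 0.07 for ribosomal proteins, beside 0.01 for all genes tested. With GKA these medians were 0.035, 0.08, 0.02, -0.01, 0.00 and -0.03, beside 0.00. The ribosomal proteins had larger medians in some other tests, beside 0.00 for all genes tested in each. The median was -0.12 for LL against PL with GKA (65 of 78 fitted changes below 0). For GKA in LL it was -0.10 (66 of 78) and for the interaction -0.12 (63 of 78). In LL against PP with GKA 49 of 78 were below 0. Most were above 0 in LL against PP (59 of 78), PL against PP (58 of 78) and GKA in PL (57 of 78). So they were in PL against PP with GKA (53 of 78, median 0.08). In LL against PL without GKA 45 of 78 were above 0, and for GKA in PP 42 of 78. These tests share groups. In LL against PL with GKA, 9 of the 78 had an unadjusted p below 0.05, beside 8.6% of all genes tested. All 9 were lower in LL, and the lowest adjusted p among them was 0.257 with edgeR. For GKA in LL there were 0 of 78 beside 6.15%. For the interaction there were 6 of 78, 5 of them below 0, beside 5.75%.

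The genes with the lowest p in each list had the following means in LL and PP without GKA, none of which passed the test (edgeR adjusted p from 0.153 to 0.465). Lonp1, a mitochondrial protease, was at 100.1 and 89.0 CPM, and Polg2, the accessory subunit of the mitochondrial DNA polymerase, at 4.45 and 3.02 CPM. The nuclear receptor Esrra was at 16.2 and 12.1 CPM, and Gabpb1, a subunit of the transcription factor GABP, at 2.56 and 3.71 CPM. Angel2 was at 11.4 and 9.40 CPM, and Ptcd1, a mitochondrial RNA-binding protein, at 5.56 and 6.65 CPM. The pseudouridine synthase Pus1 was at 8.32 and 7.07 CPM, and Yrdc, which takes part in tRNA modification, at 4.58 and 5.98 CPM. Mrpl37 and Mrps27, proteins of the large and small mitochondrial ribosomal subunits, were at 21.5 and 18.9 CPM and at 15.4 and 18.6 CPM. The prolyl-tRNA synthetase Pars2 was at 1.84 and 1.21 CPM. The leucyl-tRNA synthetase Lars2 was at 127 ± 173 and 53.6 ± 12.3 CPM (SD), with a range in LL of 42.0 to 617 CPM and medians of 70.4 in LL and 52.9 in PP. LL mouse 44 was the highest, and without it the LL mean was 72.2 ± 20.3 CPM (SD, n = 9).

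With GKA, the corresponding genes did not pass the test either (edgeR adjusted p from 0.166 to 0.639). Means in LL and PP were 4.43 and 5.66 CPM for the nuclease Mgme1 and 17.1 and 15.0 CPM for the transcription factor Tfb2m. The transcription factor Nrf1 was at 4.25 and 3.47 CPM, and the coactivator Pprc1 at 5.91 and 4.84 CPM. Fastk was at 18.8 and 16.6 CPM, and Trmt10c, a subunit of mitochondrial RNase P, at 9.85 and 8.43 CPM. Trnt1, which adds the CCA end to tRNAs, was at 10.8 and 8.59 CPM, and Alkbh1 at 2.85 and 2.04 CPM. The glutamyl-tRNA synthetase Ears2 was at 4.77 and 6.06 CPM. Lars2 was at 90.4 ± 39.5 and 58.0 ± 12.4 CPM (SD). Mrps2 was at 20.0 and 16.2 CPM, and Mrps12 at 14.5 and 17.6 CPM. The part that RNA quality, fragment length or the blood cell markers have in these values was not tested.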

How the data were processed

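Liver RNA of 56 mice was sequenced. RNA with an integrity number over 6 was sequenced by the authors, who quantified untrimmed reads against the GENCODE M26 transcripts (GRCm39) with Salmon 1.4.0, each mouse separately. PP mouse 7 was excluded following their methods. The deposited files hold estimated counts per transcript, which are not normalised, and TPM, which the authors' tool scaled by effective length, besides length and effective length. The library selection and strand are not given in the sources used here.

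Transcripts were joined to GENCODE M39 (137570 of 139225 matched), estimated counts were summed over 52230 genes and rounded, and names, positions and sequences came from that release and GRCm39. Genes were tested with edgeR 4.0.16 (R 4.3.3, TMM, filterByExpr, quasi-likelihood test, Benjamini-Hochberg adjustment) in a fit of the groups compared. DESeq2 1.42.0 on counts and limma 3.58.1 on log2(TPM + 1) were alternatives. CPM are TMM-scaled, and fold changes carry their standard error. For edgeR it was derived from the fold change and the statistic of the quasi-likelihood test. Copies were found with BLAST 2.17.0 at 90% identity over 80% of the transcript or more, and the 7 on chromosome 1 were summed with their gene. The implied fragment length is the median of length minus effective length over transcripts longer than 3000 bases. In counts simulated on LL against PP, 87.2% of 196 genes changed 2-fold and 43.4% of 198 changed 1.5-fold were called. Of the genes called, 6.04% and 4.44% had not been changed. Smaller changes and the other comparisons were not simulated.

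The genes named were all 37 members and, of other lists, those called plus the 2 with the lowest p in LL against PP without and with GKA. The members and lists were chosen with earlier results of these data known. No pair of mice in a group looked like a single library (chi-square per degree of freedom at least 12.4). The labels give no batch.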

Additional observations from a re-analysis of the deposited data

Results flagged for a closer look

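Values far from the rest of their group, by Dixon's test at the 95% level, were found 13 times in 156 group-by-measure checks, where chance flags about 1 in 20.

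For mt-Atp8, the TPM of PP mouse 1 (227800 against at most 51490 in the rest of its group), PL mouse 21 (101400 against at most 38780), LL mouse 37 (191000 against at most 72400) and PL mouse 35 with GKA (515800 against at most 43490) stood apart. None of their read levels of mt-Atp8 did.

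Genes with a copy on chromosome 1 gave 5 more. For mt-Co2 these were LL mouse 46 (11810 CPM against at most 5116) and PP mouse 13 with GKA (10420 CPM against at most 2060). For mt-Atp6 it was PL mouse 33 with GKA (7073 CPM against at most 3633). For mt-Nd3 these were PP mouse 10 (1184 CPM against at most 251.2) and LL mouse 56 with GKA (1229 CPM against at most 334.2). None of the 7 sums of a gene with its copy had such a value in any group.

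For mt-Nd6, PP mouse 20 with GKA (2806 CPM against at most 2037) and PL mouse 33 with GKA (3059 CPM against at most 2246) were high. PL mouse 33 with GKA also had the highest share of mitochondrial reads from the strand of mt-Nd6 in its group, 2.373% against at most 2.14%. The rRNA share of mitochondrial reads was 1.47% in LL mouse 51 with GKA against at most 1.15% in its group.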

How the results depend on the processing

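The number of members called was 0 in all 10 tests and stayed 0 with no filter, with total reads only, scaled on genes outside mitochondrial DNA, with all 6 groups in the fit, with PP mouse 7 kept, with effective length as an offset, with limma on TPM, with copies summed and without any of 5 mice whose members stood apart (LL mouse 46, PP mouse 10, and PP mouse 13, PL mouse 33 and LL mouse 56 with GKA). DESeq2 called 1, mt-Atp6, for LL against PL. Summing copies and leaving out mice, LL mouse 44 for Lars2 included, were added after the data were seen. Of 20 gene and comparison pairs with an unadjusted p below 0.05, the direction held in 199 of 203 alternative fits, and the other 4 were sums with copies. These 4 gave log2 fold changes of -0.017 for mt-Atp6 in LL against PP, 0.13 for mt-Atp6 and 0.11 for mt-Co2 for GKA in LL, and 0.10 for mt-Co2 in the interaction. The pairs were chosen by p in these same data and most alternatives refit nearly the same counts. A kept direction is therefore no independent support for a difference. Over 55 mice the mean mitochondrial share was 9.81% of reads, 13.3% in TPM and 13.0% with copies. The rRNA share of mitochondrial reads was 1.02%, 0.616% in TPM and 0.763% with copies, the share from the strand of mt-Nd6 2.09%, 4.79% and 1.565%, and the tRNA share 0.000925% in reads and 0.00591% in TPM. No paired analysis was possible because each mouse number occurs in a single group.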
